A study of Mus musculus with 22 samples.

Results

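The HoxD cluster is a run of 9 homeobox genes on mouse chromosome 2, and its members were taken by name: Hoxd1, Hoxd3, Hoxd4, Hoxd8, Hoxd9, Hoxd10, Hoxd11, Hoxd12 and Hoxd13. They are 9 of the 22518 genes in the deposited expression tables. Their RNA was measured by poly(A)-selected RNA sequencing in 22 mouse libraries of strain C57BL/6, 2 for each of 11 groups. Of these, 7 groups were cultures of mouse embryonic fibroblasts (MEFs) undergoing conversion to neural progenitor cells (NPCs), harvested on days 1, 4, 7, 10, 14, 17 and 21 (called Day1 to Day21 below). The remaining 4 groups were the first neurosphere-like clusters of the induction (pre-NPCs), the induced line that was established from it, at passage 6 (giNPC P6), NPCs taken from neonatal brain (Brain-NPCs), and teratoma tissue (Teratoma). The labels name no transgene, inducing factor or allele, no age of the fibroblast donors, and no origin or host for the teratoma, and the earliest group is already 1 day into induction, so there was no untreated fibroblast library. Separate inductions, cultures or animals are not named for replicates 1 and 2, so p-values measure the spread between these libraries, which may be technical except in pre-NPCs and giNPC P6, whose libraries differ in X- and Y-linked transcripts as given below.

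Hox genes encode transcription factors that give cells along the head-to-tail axis their regional identity. Within a cluster the genes lie in the order in which they are used: those at the 3′ end are switched on early and reach far forward in the hindbrain and trunk, and those at the 5′ end are switched on late and stay in the hind trunk, the limbs and the genital region. The forebrain is known to form without Hox expression, so neural cells taken from it lack these transcripts, whereas fibroblasts keep the Hox code of the body region they came from. Retinoic acid is a known inducer of the 3′ genes, Cdx and Gdf11 signals act on central and posterior genes, and Polycomb complexes keep silent Hox genes off.

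In the deposited positions (build mm9, plus strand) the cluster ran from Hoxd13 at chr2:74506367-74509655 to Hoxd1 at chr2:74601037-74603199. Between them lay Hoxd12, Hoxd11, Hoxd10, Hoxd9, Hoxd8 and Hoxd3, and the Hoxd4 gene lay inside the interval given for Hoxd3 (chr2:74550050-74586328). Each member had 1 RefSeq transcript. The 250 bases before the start of 3 members are shown because the results turn on these genes: Hoxd4 and Hoxd9, which were higher in late induction than on Day1, and Hoxd13, whose highest level was in teratoma. The sequences are from RefSeq on build GRCm38.p6, whose coordinates are not those of mm9, and capitals mark CG dinucleotides. They cover chr2:74721728-74721977, chr2:74697513-74697762 and chr2:74667975-74668224, all on the plus strand.
Hoxd4: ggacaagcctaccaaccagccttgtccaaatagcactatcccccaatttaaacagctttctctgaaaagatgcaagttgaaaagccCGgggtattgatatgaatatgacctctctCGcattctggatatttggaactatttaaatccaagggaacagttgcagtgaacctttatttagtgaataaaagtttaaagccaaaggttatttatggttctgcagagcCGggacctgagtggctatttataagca
Hoxd9: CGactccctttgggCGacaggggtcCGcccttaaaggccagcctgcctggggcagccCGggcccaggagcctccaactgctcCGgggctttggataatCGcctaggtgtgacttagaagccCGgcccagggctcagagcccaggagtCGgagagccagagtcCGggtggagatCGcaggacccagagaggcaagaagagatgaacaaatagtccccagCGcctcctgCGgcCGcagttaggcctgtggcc
Hoxd13: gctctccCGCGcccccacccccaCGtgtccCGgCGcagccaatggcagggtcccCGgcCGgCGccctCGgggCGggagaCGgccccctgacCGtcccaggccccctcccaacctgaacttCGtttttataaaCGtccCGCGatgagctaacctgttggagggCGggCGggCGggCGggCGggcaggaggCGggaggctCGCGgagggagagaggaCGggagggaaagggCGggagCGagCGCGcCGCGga
The Hoxd13 window held 31 CG dinucleotides, and 94.8% of 32851 mouse promoter windows of this length held fewer. Hoxd9 held 13, with 68.5% of windows below it, and Hoxd4 held 3, with 29.0% below it, against a median of 6 over all windows. The letters TATAAA, searched on both strands, were found at 1 position before Hoxd4 and at 2 positions before Hoxd13 that overlap on opposite strands, and 12.4% of all windows hold them. TTTATG, likewise on both strands, was found once before Hoxd4 and in 10.8% of all windows. These matches describe the letters of the windows only.

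All members were present in both deposited tables. Counts are whole reads per gene, printed here as reads or as CPM (reads relative to library size, with TMM normalisation), and FPKM is a fragment number divided by transcript length and library size, the scale on which levels of different genes are compared. Libraries held 3084428 to 9689996 reads in transcripts, and the rank correlation between the 2 libraries of a group was 0.974 to 0.995. Of the 9 members, 7 passed the filter on low counts. Hoxd1 had 2 reads in all 22 libraries and Hoxd12 had 22, and neither was tested. The filter asked for 1.69 CPM in at least 2 libraries, and Hoxd13 met it through teratoma alone, since 1 library outside teratoma reached that level. Summed over the libraries, the counts of Hoxd11 were 1.96 times those expected from its FPKM and transcript length. The other 6 tested members stood at 0.841 to 1.133. Single libraries of Hoxd11 departed further, with 9 and 0 reads on Day1 at 0.177 and 0.182 FPKM. Its level is therefore uncertain, and counts and FPKM order the groups differently.

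Libraries of some groups stood apart from each other or from the induction series. Xist, the transcript that coats the inactive X chromosome of female cells, was at or below 1.39 CPM in all 14 induction libraries, and Eif2s3y, a gene of the Y chromosome, was at 107.4 CPM or more in each of them. In pre-NPCs replicates 1 and 2, Xist was at 384.7 and 610.2 CPM and Eif2s3y at 4.15 and 74.2 CPM. In giNPC P6, Xist was at 643.1 CPM in replicate 1 and 22.4 CPM in replicate 2, while Eif2s3y was at 0 and 93.1 CPM. Brain-NPCs held Xist at 335.5 and 336.7 CPM and Eif2s3y at 0 and 0.419 CPM, and teratoma held Xist at 38.65 and 45.6 CPM and Eif2s3y at 0 and 0.103 CPM. A difference in the source of the cells therefore runs alongside each comparison of these 4 groups with the induction days, and the 2 cannot be told apart. In giNPC P6, replicate 2 also differed in these transcripts from the libraries of pre-NPCs, Brain-NPCs and teratoma. Comparisons of giNPC P6 with those groups carry the same limit. Results for pre-NPCs and giNPC P6 are given below also without either library where a call depends on it.

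Summed fibroblast markers were lower, and neural progenitor markers higher, on Day21 and in the 2 NPC groups than on Day1. Macrophage markers, which no label accounts for, were high in early induction. The summed FPKM of 10 fibroblast markers (Col1a1, Dcn, Postn and others) was 5823 to 5985 on Day1, 586 to 611 on Day21, 25.1 to 32.2 in giNPC P6 and 51.8 to 55.5 in Brain-NPCs. The sum of 8 neural progenitor markers (Sox2, Nes, Olig2 and others) was 27.6 to 46.9 on Day1, 4000 to 4298 on Day21, 4232 to 5790 in giNPC P6 and 4369 to 4508 in Brain-NPCs. The sum of 8 macrophage markers (Csf1r, Lyz2 and others) was 749.8 to 762 on Day1, 11410 to 11840 on Day7, 289 to 361 on Day21 and 2.05 to 18.7 in giNPC P6. On Day7 the fibroblast sum was 3097 to 3472 and the neural sum 181.8 to 201.8, both below the macrophage sum. On Day17 the fibroblast sum was 287 to 326, below Day21, and the neural sum 6403 to 6545, above Day21. The change in these sums was thus reversed between Day17 and Day21. The labels do not name macrophages in these cultures. In teratoma, the sums were 2081 to 2121 for fibroblast, 518 to 537 for neural and 1019 to 1025 for macrophage markers, and 771 to 778 for 5 epithelial markers (Cdh1, Epcam and keratins), against at most 41.6 elsewhere. In bulk RNA, fewer cells of a type and less RNA per cell cannot be told apart.

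The cluster was expressed unevenly along its length. Hoxd8, a gene of the cluster's centre that acts in the trunk, was the member with the highest FPKM in each of the 20 libraries outside Brain-NPCs. The 3′ member Hoxd1, which in mouse acts in pain-sensing neurons, was listed at 0 FPKM in 18 libraries and at 0.0365 to 0.0517 in the other 4. Hoxd12, a limb gene at the 5′ end, was listed above 0 in 4 libraries, 2 of them teratoma at 0.524 and 0.453 FPKM. The summed FPKM of the 9 members was 9.97 and 10.5 on Day1, 28.8 and 34.6 on Day17, 32.2 and 25.6 on Day21, 23.1 and 11.2 in pre-NPCs, 8.56 and 13.6 in giNPC P6, 0.0505 and 0.0316 in Brain-NPCs, and 11.7 and 11.25 in teratoma. The sum was thus highest on Day17 and Day21, whose libraries overlapped each other and no other group. Leaving out Hoxd13, which was tested because it is high in teratoma, the other 6 tested members all differed among the 11 groups, with adjusted p from 7.22e-08 for Hoxd8 to 0.00444 for Hoxd10 (edgeR quasi-likelihood F test, Benjamini-Hochberg), as did 95.3% of all genes tested.

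**Figure D1:**
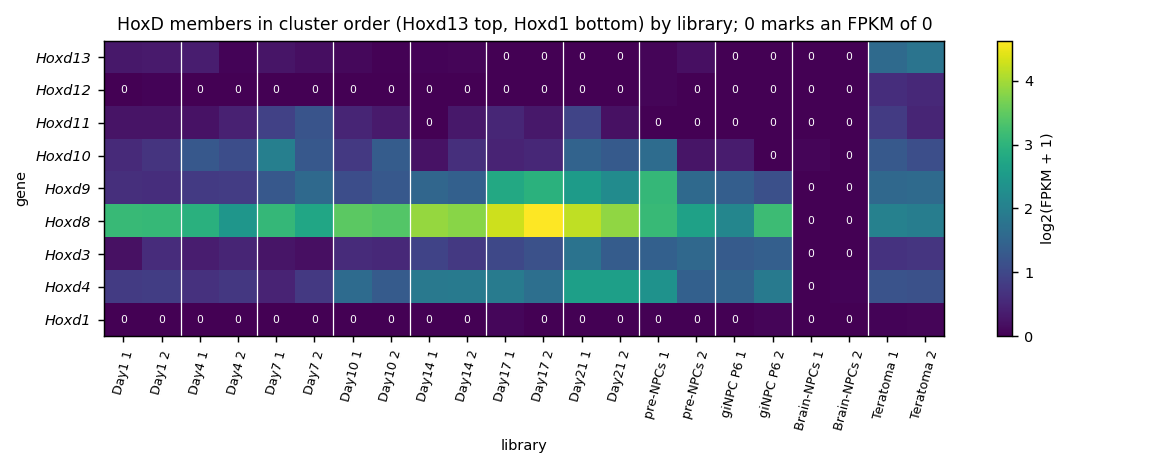
Level of each HoxD member as log2(FPKM + 1), genes in cluster order from Hoxd13 (top) to Hoxd1 (bottom), in each of the 22 libraries (columns, 2 per group between white lines), with 0 printed where the FPKM is 0. The Hoxd8 row is the brightest in every column outside Brain-NPCs, whose columns are dark throughout, and the Hoxd12 and Hoxd13 rows are brightest in teratoma.

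The first question was how the members moved during induction. Hoxd3, Hoxd4, Hoxd8 and Hoxd9 were higher on Day17 than on Day1, and Hoxd3, Hoxd4 and Hoxd9 were also higher on Day21, with log2 fold changes of 2.51 to 2.79. Hoxd10 and Hoxd11 were not called on any day, and Hoxd13 was called lower on Day14 and Day17 from 9 reads on Day1. Genes were called at an adjusted p under 0.05 (edgeR quasi-likelihood test, Benjamini-Hochberg over 14292 genes) with at least a 2-fold change. The 6 comparisons of later days with Day1 share the same 2 Day1 libraries.

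Hoxd3, which shapes the first neck vertebrae, stood at 0.162 and 0.502 FPKM in the 2 Day1 libraries, 0.295 and 0.388 on Day4, 0.200 and 0.145 on Day7, and 0.479 and 0.447 on Day10. It stood at 0.905 and 0.710 on Day14, 0.992 and 1.23 on Day17, and 2.375 and 1.56 on Day21. From Day14 on, every library was above every library of Day1 to Day10, and in FPKM Day21 was above Day17. In CPM these 2 days overlapped, at 15.15 and 6.63 on Day21 and 7.36 and 6.19 on Day17. Its reads went from 2 and 13 on Day1 to 46 and 29 on Day17 and 48 and 22 on Day21. The log2 fold change against Day1 was 2.11 ± 0.63 (SE) on Day17 (edgeR, adjusted p = 0.00803) and 2.79 ± 0.63 on Day21 (adjusted p = 0.000952), with no overlap of the groups. The Day1 libraries were uneven, and without Day1 replicate 1 the Day17 value was 1.21 and was not called (edgeR, adjusted p = 0.15). On log2(FPKM + 1), a scale that understates the change of low genes, the Day17 value was 0.67, under the 2-fold threshold.

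Hoxd4, a retinoic acid-responsive gene of the hindbrain and neck whose promoter letters are given above, stood at 0.740 and 0.798 FPKM on Day1, 0.583 and 0.681 on Day4, 0.381 and 0.706 on Day7, and 2.06 and 1.51 on Day10. It stood at 2.645 and 2.72 on Day14, 2.82 and 2.23 on Day17, and 5.11 and 5.12 on Day21. In FPKM, all libraries from Day10 on were above all earlier ones, and Day21 was above every other group. In CPM, pre-NPCs replicate 1 at 22.35 lay between the Day21 libraries at 20.8 and 23.8. Its reads were 16 and 22 on Day1 and 66 and 79 on Day21. The log2 fold change against Day1 was 1.43 ± 0.57 on Day14 (edgeR, adjusted p = 0.0498), 1.53 ± 0.56 on Day17 (adjusted p = 0.0284) and 2.51 ± 0.57 on Day21 (adjusted p = 0.000868). The Day14 call was lost with the DESeq2 size factors (edgeR, adjusted p = 0.0529), with the replicate number as a block (adjusted p = 0.05) and without either Day1 library or Day14 replicate 2. The Day17 call was lost without either Day1 library or Day17 replicate 1, with edgeR adjusted p of 0.208, 0.0609 and 0.3, and on log2(FPKM + 1) it was 0.99, just under the 2-fold threshold. The Day21 call held in each alternative run.

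Hoxd8 stood at 7.67 and 7.55 FPKM on Day1, 6.62 and 4.41 on Day4, 7.42 and 5.70 on Day7, and 10.01 and 9.47 on Day10. It stood at 13.96 and 13.0 on Day14, 18.2 and 23.7 on Day17, and 17.15 and 13.5 on Day21. The 2 libraries of Day17 were above those of every other group, and Day14 and Day21 overlapped. Its log2 fold change against Day1 was 1.19 ± 0.39 on Day17 (edgeR, adjusted p = 0.0136), from 104 and 92 reads to 246 and 243. Without Day1 replicate 1 (edgeR, adjusted p = 0.0858), without Day1 replicate 2 (0.082) or without Day17 replicate 2 (0.0952) it was no longer called, at values of 1.13, 1.14 and 0.98. On Day21 it was 0.76 ± 0.39 and was not called (edgeR, adjusted p = 0.117).

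Hoxd9, which in mouse patterns lumbar vertebrae and the forelimb, stood at 0.535 and 0.514 FPKM on Day1, 0.7225 and 0.770 on Day4, 1.415 and 2.005 on Day7, and 1.15 and 1.405 on Day10. It stood at 1.89 and 1.66 on Day14, 5.89 and 6.75 on Day17, and 4.84 and 3.72 on Day21. The steepest step was between Day14 and Day17, and no library of Day17 overlapped Day21. Its reads were 11 and 8 on Day1, 111 and 79 on Day17, and 41 and 42 on Day21. The log2 fold change against Day1 was 3.16 ± 0.61 on Day17 (edgeR, adjusted p = 0.000172) and 2.72 ± 0.62 on Day21 (adjusted p = 0.00099), and both calls held without any single library. On Day7 it was already above Day1 in both libraries, but was not called (edgeR, log2 fold change 1.18 ± 0.67, adjusted p = 0.214).

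The 5′ members were at low counts. Hoxd10, which acts in lumbar motor neurons and the hindlimb, stood at 0.456 and 0.613 FPKM on Day1, 1.41 and 1.14 on Day4, 2.98 and 1.41 on Day7, and 0.709 and 1.54 on Day10. It stood at 0.170 and 0.540 on Day14, 0.378 and 0.427 on Day17, and 1.76 and 1.48 on Day21. In FPKM, Day4, Day7, Day10 and Day21 were above Day1 in all libraries, Day17 was below it and Day14 overlapped it. The Day7 libraries differed widely, with 39 and 8 reads. The log2 fold change of Day21 against Day1 was 0.73 ± 1 on counts (edgeR, adjusted p = 0.59) and 0.77 ± 0.34 on log2(FPKM + 1) (limma, adjusted p = 0.0662), neither of them called. The difference between these genes and the 3′ and central ones was not tested. The log2 fold change of Day7 against Day1 was 1.54 ± 0.95 on counts (edgeR, adjusted p = 0.256) and 1.02 ± 0.34 on log2(FPKM + 1), where it was called (limma, adjusted p = 0.0318). All 8 macrophage markers were above 0 FPKM on Day1 and Day7, and their sum given above was also highest on Day7. Their part in this level was not tested.

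Hoxd11, which with its HoxA counterpart shapes the forearm bones, stood at 0.870 and 1.30 FPKM on Day7, above all other libraries except Day21 replicate 1 at 0.923. In the other induction libraries it stood between 0 and 0.417, with Day21 replicate 2 at 0.157. On counts it had 7 and 11 reads on Day7 against 9 and 0 on Day1 (edgeR, log2 fold change 1.40 ± 0.99, adjusted p = 0.34). In CPM Day7 did not stand out, at 1.73 and 3.05, against 4.42 in Day21 replicate 1 and 2.39 in Day10 replicate 1. Hoxd13, the outermost 5′ member and a gene of digits and genitalia, had 5 and 4 reads on Day1, 11 and 0 on Day4, 1 and 2 on Day7, 0 and 1 on Day10, and 0 in the 6 libraries of Day14, Day17 and Day21. Against the 9 reads of Day1 it was at least 3.5-fold lower on Day14 (edgeR, adjusted p = 0.0431) and at least 3.33-fold lower on Day17 (adjusted p = 0.038), with 3 reads over both libraries as the limit that a count of 0 allows. Leaving out any 1 of the 4 libraries ended each call, with edgeR adjusted p of 0.0885 to 0.176 for Day14 and 0.0723 to 0.155 for Day17, and DESeq2 called neither (adjusted p = 0.0764 and 0.0689). On Day21 the same 9 reads against 0 allowed a bound of 1.98-fold and gave no call (edgeR, adjusted p = 0.0804).

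Over the 7 tested members, 0 were called on Day4, Day7 or Day10 against Day1, where 10.3%, 15.7% and 22% of all genes were called in either direction (edgeR). The shares called higher were 8.43%, 11.7% and 15.4%, and those called lower 1.87%, 4.01% and 6.61%. At an unadjusted edgeR p under 0.05 there were 0 members on Day4, 0 on Day7 and 1 on Day10, which was Hoxd13, and DESeq2 called 0 on each of these days. On Day14, 1 was called higher and 1 lower, with 27.6% of all genes called, 15.5% higher and 12.1% lower. On Day17, 4 were called higher and 1 lower, with 36.6% of all genes called, 19.5% higher and 17.1% lower. On Day21, 3 were called higher and 0 lower, with 35.6% of all genes called, 19.6% higher and 16% lower. The median log2 fold change of the tested members was -0.04 on Day4, 0.17 on Day7, 0.77 on Day10, 0.69 on Day14, 1.19 on Day17 and 1.55 on Day21, against medians of 0 to 0.047 over all genes. With Hoxd13 set to its bound on the days when its count was 0, the last 3 medians were 0.71, 1.17 and 1.52.

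**Figure D2:**
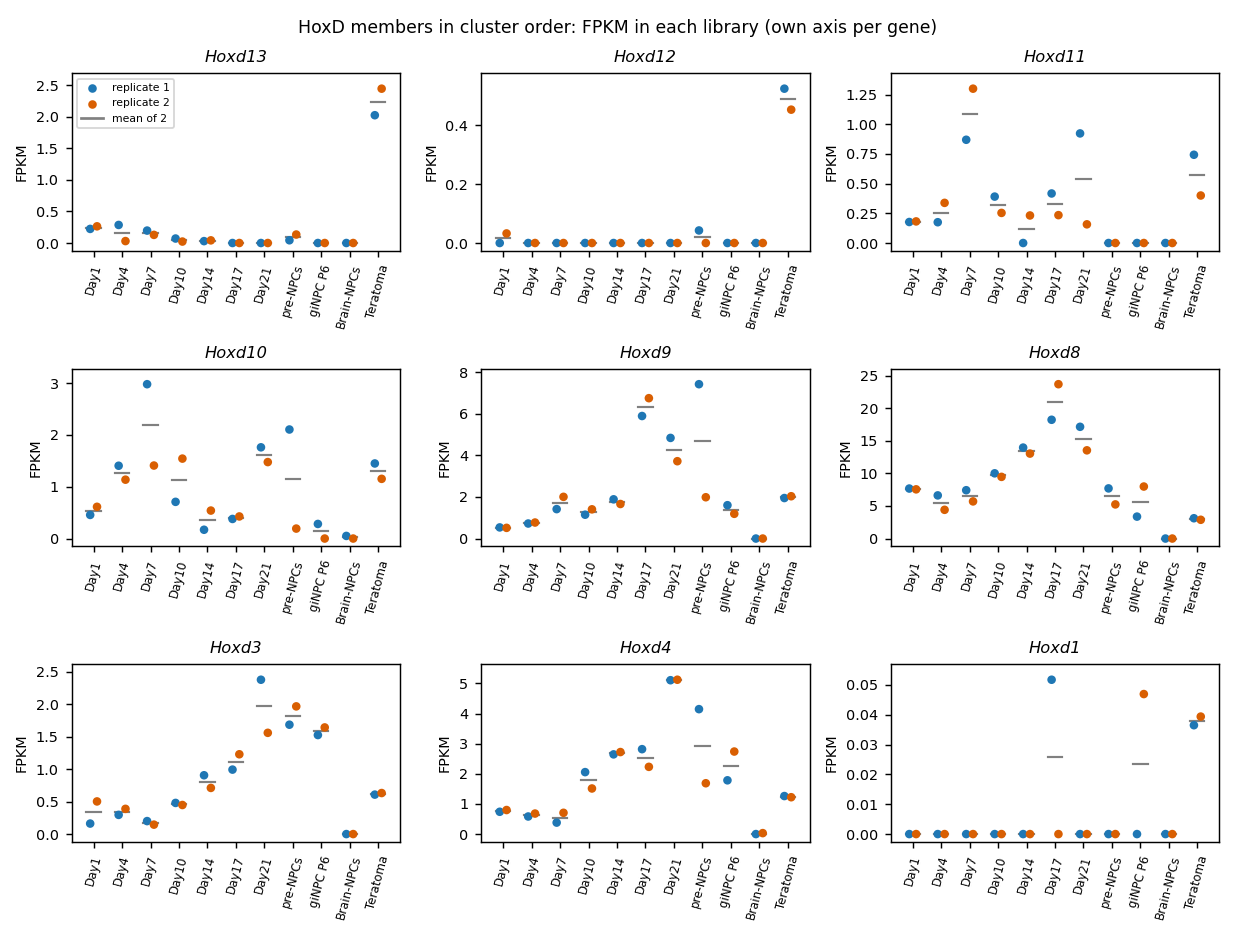
FPKM of each HoxD member (1 panel per gene in cluster order, each with its own vertical axis) in the 11 groups, with replicate 1 in blue, replicate 2 in orange and the mean of 2 as a grey line. Hoxd3 and Hoxd4 are highest on Day21, Hoxd8 on Day17 at 18.2 and 23.7, and Hoxd12 and Hoxd13 in teratoma, and the 2 pre-NPCs libraries lie far apart for Hoxd9 at 7.42 and 1.99.

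The second question was whether the levels of late induction were kept in the neurosphere-like clusters and in the established line. In pre-NPCs, Hoxd11 was the one member called lower than on Day21, and in giNPC P6, Hoxd9 was the one called lower than in pre-NPCs. Hoxd3 and Hoxd4 were still higher in giNPC P6 than on Day1. The line was not tested against Day21. In FPKM, its Hoxd4 (1.78 and 2.74), Hoxd8 (3.37 and 7.98) and Hoxd9 (1.60 and 1.19) lay below both Day21 libraries. Those stood at 5.11 and 5.12, 17.15 and 13.5, and 4.84 and 3.72, while Hoxd3 overlapped. The 2 libraries of pre-NPCs and the 2 of giNPC P6 disagreed for several members, and the calls for Hoxd9 and Hoxd11 depended on single libraries.

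Hoxd11 had 14 and 3 reads on Day21 and 0 in all libraries of pre-NPCs and giNPC P6. In pre-NPCs it was at least 8.8-fold lower than on Day21 (edgeR, adjusted p = 0.00709), a call that was lost without Day21 replicate 1 (adjusted p = 0.11), pre-NPCs replicate 1 (0.0534) or pre-NPCs replicate 2 (0.0516). Hoxd8 stood at 7.70 and 5.24 FPKM in pre-NPCs, below both Day21 libraries. Its log2 fold change was -1.05 ± 0.40 on counts, which missed the call (edgeR, adjusted p = 0.053), and -1.14 ± 0.27 on log2(FPKM + 1), which was called (limma, adjusted p = 0.00331). Of the 7 tested members, 1 was called in pre-NPCs against Day21, where 17.5% of all genes were, 8.2% higher and 9.31% lower. The members' median log2 fold change was -0.51, or -0.59 over the 6 members with a value once bounds are used, against 0 over all genes.

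Hoxd9 differed widely between the pre-NPCs libraries, with 138 and 29 reads (7.42 and 1.99 FPKM), and stood at 28 and 25 reads (1.60 and 1.19 FPKM) in giNPC P6. The groups did not overlap, and the log2 fold change of giNPC P6 against pre-NPCs was -2.05 ± 0.54 (edgeR, adjusted p = 0.0063). Without pre-NPCs replicate 1 it was -0.54 and was not called (edgeR, adjusted p = 0.545), and in the fit of these groups alone it was -2.01 (edgeR, adjusted p = 0.105). Hoxd4 differed between the same 2 pre-NPCs libraries, with 113 and 29 reads, and so did Hoxd10, with 23 and 1, while Hoxd3 had 42 and 50. Among the paralogs, Hoxa10 stood at 15.5 and 2.52 FPKM and Hoxc10 at 21.7 and 2.202 in these 2 libraries. In giNPC P6 against pre-NPCs 1 of 7 tested members was called, with 18.5% of all genes called, 7.68% higher and 10.8% lower, and the median log2 fold change was -0.38 against 0 over all genes. With bounds in place of fitted values the members' median was -0.37 over 5 members.

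In giNPC P6, Hoxd3 stood at 1.52 and 1.64 FPKM (58 and 73 reads) and Hoxd4 at 1.78 and 2.74 (54 and 93 reads), above both Day1 libraries. Against Day1, the log2 fold change was 2.63 ± 0.62 for Hoxd3 (edgeR, adjusted p = 0.00107) and 1.47 ± 0.56 for Hoxd4 (adjusted p = 0.03). The Hoxd4 call was lost without Day1 replicate 1 (edgeR, adjusted p = 0.185), Day1 replicate 2 (0.0523) or giNPC P6 replicate 2 (0.145), and the Hoxd3 call was kept in each of these. On log2(FPKM + 1) both were under 2-fold, at 0.97 for Hoxd3 and 0.87 for Hoxd4. Hoxd8 stood at 3.37 and 7.98 FPKM, on either side of the Day1 level, with 50 and 171 reads. The same 2 libraries held the opposite Xist and Eif2s3y levels given above, and among the paralogs Hoxc8 stood at 6.61 and 42.5 FPKM and Hoxa9 at 5.62 and 32.2. Hoxd11 and Hoxd13 had 0 reads in giNPC P6 and 9 each on Day1, which makes each at least 4.1-fold lower (edgeR, adjusted p = 0.0197 and 0.0245). For Hoxd11 the 9 reads all came from Day1 replicate 1, and without it there was no difference to test, while leaving out either giNPC P6 library gave edgeR adjusted p of 0.072 and 0.0869. For Hoxd13 leaving out any 1 of the 4 libraries ended the call, with edgeR adjusted p of 0.0538 to 0.0918. In all, 2 of 7 tested members were called higher and 2 lower, with 43.2% of all genes called, 23% higher and 20.2% lower, and the members' median log2 fold change was -0.32, or -0.28 with bounds, against 0 over all genes.

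**Figure D3:**
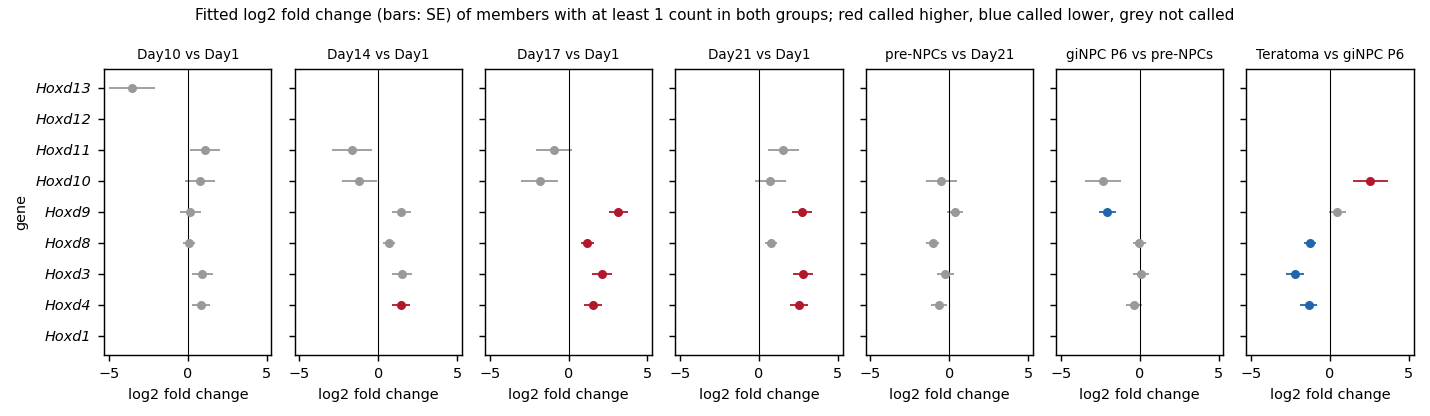
Fitted log2 fold change (edgeR) with its SE for members with at least 1 read in both groups, in 7 comparisons, genes in cluster order from Hoxd13 (top) to Hoxd1 (bottom), with red for called higher, blue for called lower and grey for not called. Hoxd3, Hoxd4 and Hoxd9 lie between 2.51 and 2.79 on Day21, and in teratoma against giNPC P6 Hoxd10 lies to the right and Hoxd3, Hoxd4 and Hoxd8 to the left.

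The third question was how the induced line compared with NPCs from brain. Brain-NPCs had 0 reads of any HoxD member, while giNPC P6 kept 4 members at measurable levels. In both Brain-NPCs libraries all 9 members had 0 reads, which allows up to 0.217 CPM per member over the group. The FPKM tables listed Hoxd10 at 0.0505 in replicate 1 and Hoxd4 at 0.0316 in replicate 2, and the other members at 0. In giNPC P6, summed over both libraries, Hoxd8 had 221 reads, Hoxd4 147, Hoxd3 131, Hoxd9 53, Hoxd10 6 and Hoxd1 1, and Hoxd11, Hoxd12 and Hoxd13 had 0.

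Against Brain-NPCs, Hoxd8 was at least 75.8-fold higher in giNPC P6 (edgeR, adjusted p = 5.42e-07), Hoxd4 at least 50.4-fold (1.01e-05), Hoxd3 at least 44.9-fold (6.94e-06) and Hoxd9 at least 18.2-fold (0.000165). Both giNPC P6 libraries were above both Brain-NPCs libraries for each of the 4 genes. These 4 of 7 tested members were called higher and 0 lower, with 16.6% of all genes called, 7.79% higher and 8.83% lower, and 4 were called under each alternative that was run. Hoxd10 was at least 2.06-fold higher by its 6 reads, all in replicate 1, and was not called (edgeR, adjusted p = 0.166). The members' median log2 fold change was 5.49 over the 5 with reads in giNPC P6, taken at their bounds, and 7.58 as fitted over 7, against 0 over all genes.

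Brain-NPCs were lower than Day1 for all 7 tested members, of which Hoxd8 was at least 91.8-fold, Hoxd4 at least 17.8-fold and Hoxd10 at least 9.36-fold lower (edgeR, adjusted p = 2.09e-08, 6.94e-05 and 0.00627). In this comparison 50% of all genes were called, 27% higher and 23% lower. On log2(FPKM + 1) 1 member, Hoxd8, was called, and in the fit of these groups alone Hoxd4 and Hoxd8 were called and the others did not pass its filter on low counts. Hoxd11 and Hoxd13 rested on 9 Day1 reads each and were lost without Day1 replicate 1 or without either Brain-NPCs library, which left 5 members called. The members' median log2 fold change was -6.54 as fitted and -3.15 with bounds, against 0.009 over all genes.

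The fourth question was how teratoma compared with the giNPC P6 line. Hoxd10 and Hoxd11 were called higher in teratoma and Hoxd3, Hoxd4 and Hoxd8 lower, and Hoxd12 and Hoxd13 had reads in teratoma and 0 in giNPC P6. Hoxd13 had 81 and 79 reads in teratoma (2.02 and 2.44 FPKM) against 0 and 0 in giNPC P6, at least 35.5-fold higher. It passed the filter on low counts through teratoma alone, so this difference is given with no test. Hoxd12 had 11 and 10 reads against 0 and 0, at least 4.66-fold higher, and was not tested because it did not pass the filter. Every teratoma library was above every library of the other 10 groups for both genes.

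Hoxd11 had 19 and 16 reads in teratoma against 0 and 0 in giNPC P6, at least 7.77-fold higher (edgeR, adjusted p = 0.00319). Hoxd10 had 40 and 17 reads against 6 and 0, a log2 fold change of 2.56 ± 1.1 (edgeR, adjusted p = 0.0495). That call was lost in the fit of these 2 groups alone (edgeR, adjusted p = 0.077), without giNPC P6 replicate 2 (0.276) or without Teratoma replicate 1 (0.245). Hoxd9 had 55 and 55 reads against 28 and 25, lay above giNPC P6 in CPM in both libraries, and was not called (edgeR, log2 fold change 0.46 ± 0.54, adjusted p = 0.482).

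Hoxd3 had 18 and 23 reads in teratoma against 58 and 73, a log2 fold change of -2.24 ± 0.56 (edgeR, adjusted p = 0.00166). Hoxd4 had 45 and 40 reads against 54 and 93, with a log2 fold change of -1.36 ± 0.52 (edgeR, adjusted p = 0.0301). Hoxd8 had 70 and 64 reads against 50 and 171, with a log2 fold change of -1.27 ± 0.40 (edgeR, adjusted p = 0.0104). On log2(FPKM + 1) all 3 were under 2-fold, at -0.67, -0.52 and -0.65. The Hoxd4 call was lost with DESeq2 size factors (edgeR, adjusted p = 0.0617) and without giNPC P6 replicate 2 (0.154) or either teratoma library, and the Hoxd8 value was -0.27 without giNPC P6 replicate 2 (edgeR, adjusted p = 0.605) and -1.14 in the fit of these groups alone (edgeR, adjusted p = 0.134). Of the 6 members whose place in the test did not rest on teratoma, 2 were called higher and 3 lower, with 42.6% of all genes called, 32.1% higher and 10.5% lower. Epithelial, macrophage and fibroblast marker sums were also above those of giNPC P6, as given above, with all 5 epithelial, all 6 tested macrophage and 8 of 10 fibroblast markers called higher, and their part in the HoxD levels was not tested.

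The balance of the cluster is given as values, with no test. Hoxd10 to Hoxd13 made up 40.5% and 39.5% of the summed HoxD FPKM in its 2 libraries, 30.1% and 24.9% on Day7, 8.35% and 6.39% on Day21, and 3.29% and 0% in giNPC P6. HoxD made up 24.9% and 24.6% of the FPKM of all Hox genes in teratoma, against 3.13% to 9.21% in the 18 libraries of the induction days, pre-NPCs and giNPC P6. The summed FPKM of HoxD in teratoma lay between the 2 giNPC P6 libraries, while that of the other clusters was lower in teratoma, at 14.60 to 14.64 against 120.8 to 140.4 for HoxA, 13.4 to 14.2 against 106.2 to 112.9 for HoxB, and 6.37 to 6.5 against 18.7 to 84.05 for HoxC.

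**Figure D4:**
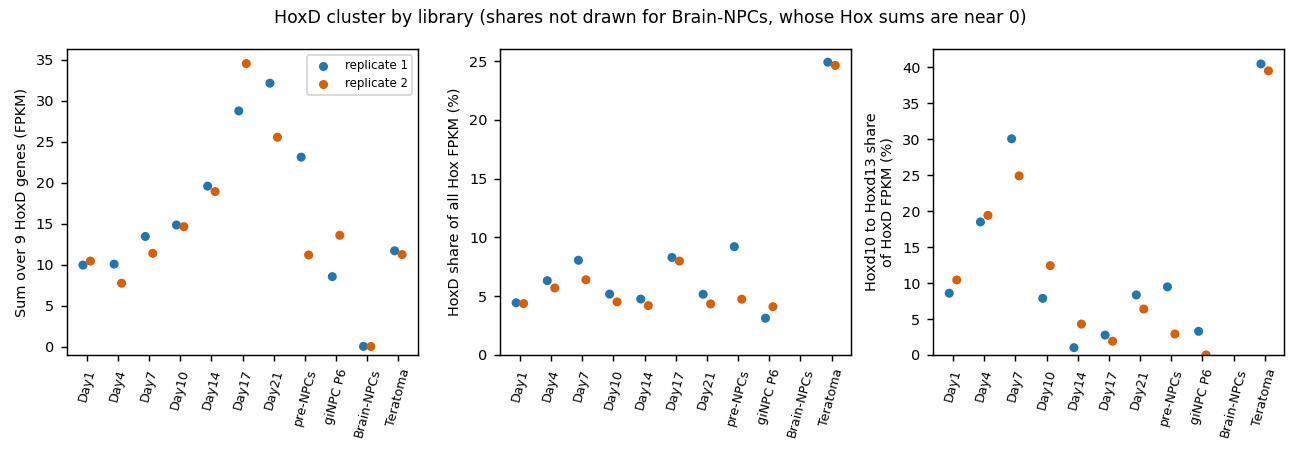
Summed FPKM of the 9 HoxD genes (left), their share of the FPKM of all Hox genes (middle) and the share of Hoxd10 to Hoxd13 in the HoxD sum (right), with 1 point per library (replicate 1 blue, replicate 2 orange), shares not drawn for Brain-NPCs. The sum is highest on Day17 and Day21, and both shares are highest in teratoma, at 24.9% and 24.6% of all Hox FPKM and at 40.5% and 39.5% of HoxD.

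Among themselves, members differed in how alike their patterns were. Over the 11 group means of log2(FPKM + 1), Pearson's r was 0.92 between Hoxd3 and Hoxd4, 0.81 between Hoxd4 and Hoxd9, 0.78 between Hoxd3 and Hoxd9, 0.75 between Hoxd4 and Hoxd8, 0.71 between Hoxd8 and Hoxd9, and 0.78 between Hoxd10 and Hoxd11. It was 0.05 between Hoxd3 and Hoxd10 and -0.25 between Hoxd8 and Hoxd13. These values describe 11 means that share libraries and depth, and part of Hoxd3 and Hoxd4 overlaps, so reads could be split between them. The order of levels between groups also differed by gene. Hoxd3 had Day21 (mean 1.97 ± 0.578 FPKM, SD, n = 2), pre-NPCs and giNPC P6 at the top, with Day21 overlapping each of the others, and Day7 and Brain-NPCs at the bottom. Hoxd8 had Day17 (20.96 ± 3.86) at the top, followed by Day21 and Day14, which overlapped, and it had Day7, pre-NPCs, giNPC P6 and Day4 as a run of overlapping neighbours above teratoma. Its Day1 libraries (7.67 and 7.55) lay within the ranges of pre-NPCs (7.70 and 5.24) and giNPC P6 (3.37 and 7.98). Hoxd10 had Day7 (2.196 ± 1.11) and Day21 at the top with overlapping libraries, and teratoma, Day4, pre-NPCs and Day10 next, each overlapping its neighbour. These were not separate levels, since Day21 (1.76 and 1.48) lay within the range of pre-NPCs (2.11 and 0.192).

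By the same r over 15752 genes, the 3 genes most like each member were Ndufaf1 (0.941), 5730455P16Rik and Msx1as for Hoxd3, Cabp7 (0.955), Erlin2 and Cdkal1 for Hoxd4, Mnat1 (0.954), Vma21 and Anapc10 for Hoxd8, and Pdcd4 (0.94), Mff and 9130011E15Rik for Hoxd9. They were Aldh2 (0.962), Psen2 and 1700020L24Rik for Hoxd10, Tnfaip8l3 (0.919), Eaf2 and Tbx4 for Hoxd11, and Mlph (0.999), Rasgrf2 and Igsf5 for Hoxd13. The 3 genes of Hoxd10 and the 3 of Hoxd11 had their highest group mean on Day7, and those of Hoxd13 in teratoma, with Mlph at a mean of 7.14 FPKM. These genes were picked by r over the same group means, so a shared highest group largely follows from the choice. The r values are the highest of 15752 over 11 means, and no link to the members was tested.

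Other transcripts of the neighbourhood were looked at within 500 kb of the outermost members in mm9. Evx2, the homeobox gene next to Hoxd13 that is known to share its regulation in the limb, was listed at 0 FPKM in all libraries except teratoma, where it had 0.159 and 0.197 FPKM and 10 reads over both. Lnp, the endoplasmic reticulum protein gene beyond it, had group means of 2.24 to 4.32 FPKM, and Mtx2, a mitochondrial import gene on the Hoxd1 side, of 21.7 to 42.8. The noncoding gene 1700109F18Rik overlaps the interval of Hoxd3, and RefSeq lists it under the name Hoxd3os1, an opposite-strand transcript. It had 21 reads in giNPC P6 and 0 in Brain-NPCs and was called higher there (edgeR, adjusted p = 0.0314), but the strand setting of the counting is not given in the sources used here and its reads cannot be told apart from those of Hoxd3. The counts of 1700109F18Rik were also well above those expected from its FPKM, so its level is uncertain. Mir10b and 4930441J16Rik were listed at 0 in every library. Lnp (limma on FPKM) and Mtx2 (edgeR) were called in 0 of the 12 comparisons, and Evx2 was not tested.

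The other Hox clusters were counted in the same comparisons. In giNPC P6 against Brain-NPCs, 9 of 10 tested HoxA genes, 8 of 8 HoxB genes and 6 of 7 HoxC genes were called higher and none lower, beside 4 of 7 HoxD genes. Of all genes, 7.79% were called higher and 8.83% lower. Summed over the 30 HoxA, HoxB and HoxC genes, Brain-NPCs held 4 and 14 reads. On Day21 against Day1, 7 of 10 HoxA genes, 3 of 8 HoxB genes and 2 of 7 HoxC genes were called higher, and 1 gene, Hoxb4, was called lower. The shares over all genes were 19.6% higher and 16% lower. In giNPC P6 against Day1, 8 HoxA genes were called higher and 1 lower, 4 HoxB genes higher and 2 lower, and 0 HoxC genes higher and 4 lower (median log2 fold changes 2.91, 0.85 and -2.33, or 2.91, 0.82 and -1.72 with bounds). Over all genes, 23% were called higher and 20.2% lower. In teratoma against giNPC P6, 1 HoxA gene was called higher and 8 lower, and for HoxB 0 and 7, and for HoxC 0 and 4. Of all genes, 32.1% were called higher and 10.5% lower. The one HoxA gene called higher was Hoxa11, the counterpart of Hoxd11, at 1.07 and 1.40 FPKM in teratoma and 0 in giNPC P6.

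Levels within paralog groups, which share an ancestral gene, are given for the groups of samples where HoxD members were high. Hoxd3 on Day21 (2.375 and 1.56 FPKM) lay below Hoxa3 (9.19 and 8.35) and Hoxb3 (8.125 and 9.28). Hoxd8 at its highest, on Day17 (18.2 and 23.7 FPKM), lay below Hoxb8 (34.3 and 45.8) and Hoxc8 (48.2 and 74.05). Hoxd9 on Day17 (5.89 and 6.75) lay above Hoxa9 (0.499 and 0.329) and Hoxb9 (2.66 and 3.005) and below Hoxc9 (9.15 and 13.4). On Day21 Hoxd9 (4.84 and 3.72) lay below Hoxa9 (20.0 and 18.4), Hoxb9 (24.0 and 20.5) and Hoxc9 (45.4 and 44.3). In teratoma Hoxd13 (2.02 and 2.44 FPKM) lay above Hoxa13 (0.655 and 1.18), Hoxb13 (0.272 and 0.0586) and Hoxc13 (0.0272 and 0), and Hoxd8 (3.115 and 2.88) above Hoxb8 (0.770 and 0.939) and Hoxc8 (1.01 and 0.8765). Also in teratoma, Hoxd9 (1.95 and 2.03) lay above Hoxa9 (0.967 and 1.04), Hoxb9 (0.778 and 0.499) and Hoxc9 (0.758 and 0.560), and Hoxd12 (0.524 and 0.453) above Hoxc12 (0 and 0.1005). Hoxd3, Hoxd10 and Hoxd11 had lower means there than Hoxb3, Hoxa10 and Hoxa11. These are levels per transcript length within libraries and were not tested between genes.

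Of the genes known to act with or on Hox genes, the TALE cofactors (Pbx, Meis and Pknox proteins, which bind DNA with Hox proteins) were expressed in every group, with sums of 68.6 to 134.2 FPKM over 9 genes. In Brain-NPCs, where HoxD was at 0, their sum was 94.3 to 96.7 FPKM, against 122.6 to 126.3 in giNPC P6. On FPKM, 5 of 9 were called higher and 0 lower in giNPC P6 against Day1 (limma; Meis2, Pbx3, Pbx4, Pknox1 and Pknox2). For the limma calls, here and below, no share over all genes is given, so they have no background beside them. On counts 5 of the 9 were tested, and 2 were called higher and 0 lower, where 23% and 20.2% of all genes were: Pbx3, from 36.2 ± 1.57 to 89.3 ± 2.19 CPM (SD, n = 2; edgeR, log2 fold change 1.30 ± 0.18, adjusted p = 2.2e-06), and Pbx4, from 1.09 ± 0.623 to 8.37 ± 0.62 (edgeR, 2.89 ± 0.61, adjusted p = 0.000336). Against Brain-NPCs 0 of 5 were called on counts by edgeR and 1 of 9 on FPKM by limma, which was Meis1, at 19.9 ± 1.04 FPKM in giNPC P6 and 8.49 ± 0.654 in Brain-NPCs. Meis1 and Meis2 have several transcripts whose shared reads were left out of the counts, so FPKM is given for them.

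Of 15 upstream regulators, 12 were tested, and on Day21 against Day1 4 were called higher and 2 lower (edgeR), where 19.6% and 16% of all genes were. On FPKM 3 were called higher and 3 lower, Rarg among the lower (limma). Aldh1a1, an enzyme that makes retinoic acid, went from 3.18 ± 0.71 to 611.2 ± 18.1 CPM (edgeR, log2 fold change 7.59 ± 0.28, adjusted p = 4.26e-15). The retinoic acid receptor gene Rarb went from 0.683 ± 0.659 to 62.35 ± 15.4 CPM (edgeR, log2 fold change 6.42 ± 0.43, adjusted p = 4.1e-11). The retinoic acid-binding protein genes Crabp1 and Crabp2 fell, Crabp1 from 2630 ± 104.2 to 23.5 ± 2.94 CPM (edgeR, log2 fold change -6.80 ± 0.38, adjusted p = 2.15e-12). In teratoma against giNPC P6, 9 were called higher and 2 lower (edgeR), where 32.1% and 10.5% of all genes were. Cdx1, a caudal homeobox gene, had 0 CPM in giNPC P6 and 5.305 ± 0.0933 in teratoma, and its FPKM was 0 in each group except Day4 and teratoma. It is among the 9, but its difference is given with no test, since teratoma may alone have brought it through the filter on low counts. The other genes among the 9 were not screened for this. The count of 9 and the list's median in this comparison are therefore not read against the values over all genes. The median log2 fold change of the list was 0.01 on Day21 against Day1 and 3.58 in teratoma against giNPC P6, or 0.29 over 8 genes and 3.33 over 12 with bounds, beside the medians of 0 and 0.038 over all genes.

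Of 23 Polycomb and Trithorax genes, which keep Hox genes off or on, 16 were tested on counts. On Day21 against Day1, 3 were called higher and 1 lower by edgeR, where 19.6% and 16% of all genes were, and 3 of 21 higher and 0 lower on FPKM by limma. Cbx7, a Polycomb subunit, went from 1.62 ± 0.146 to 12.2 ± 1.92 CPM (edgeR, log2 fold change 2.89 ± 0.43, adjusted p = 7.2e-06). In giNPC P6 against Day1, 7 were called higher and 1 lower by edgeR, where 23% and 20.2% of all genes were, and 7 of 21 higher and 0 lower by limma. Against Brain-NPCs, 3 were called higher and 1 lower by edgeR, where 7.79% and 8.83% of all genes were, with Bmi1, Ezh1 and Cbx8 as the higher ones, and limma called the same 3 higher on FPKM and 0 lower. Several genes of this list have more than 1 transcript and incomplete counts, so the FPKM counts are the fuller ones.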

How the data were processed

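Poly(A) RNA of 22 libraries, 2 in each of 11 groups, was sequenced as paired reads. Per the submitters' processing notes, TopHat2 2.0.12, HTSeq 0.6.0, Cufflinks 2.2.1 and edgeR were used with build mm9, without stated roles. Neither strand setting nor annotation version was given in the sources used here. Raw read counts per RefSeq transcript were deposited by the authors, with reads that HTSeq left unassigned in separate rows that stayed out of library sizes here. The authors deposited FPKM per transcript, with gene names, in separate tables, and their fragments were scaled to length and library size before deposit.

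Of 29243 transcripts with counts, 28787 were named through the FPKM tables, 115 through RefSeq accessions and 341 kept no name. Counts and FPKM were summed per gene. Reads shared by overlapping transcripts were lost from the counts: of genes with several transcripts, 2537 of 2749 held under 0.5 of the counts expected from FPKM, against 276 of 9591 genes with 1 transcript, as all HoxD genes have. Genes were tested with edgeR 4.0.16 (TMM, filterByExpr, quasi-likelihood, 1 fit of all libraries, 11 residual degrees of freedom, common coefficient of variation 0.161) in R 4.3.3, with Benjamini-Hochberg adjustment over 14292 genes. Called means an adjusted p under 0.05 and at least 2-fold. Alternatives were limma 3.58.1 on log2(FPKM + 1) over 15659 genes with at least 1 FPKM in 2 libraries, log2(FPKM + 0.1), no filter, DESeq2 1.42.0 and its size factors, the 2 groups alone, the replicate block, and leaving out each library. Fits were tested on simulated data. Where a group had 0 reads, a fold is a bound against 3 reads over its libraries. Intervals and bounds cover counting error only.

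All 9 members were named, with genes within 500 kb, paralogs, the 3 genes most like each member that reached 1 FPKM, and at most 4 called genes per list and comparison. Members and lists were chosen with earlier results of these data known.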

Additional observations from a re-analysis of the deposited data

How the results depend on the processing

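Over 33 called results of single HoxD genes, 378 alternative values were computed. Of these, 288 kept the direction and the call, 90 kept the direction and lost the call, and 0 reversed. The 33 include Hoxd13 in teratoma against giNPC P6, whose difference is given above with no test. Hoxd13 also counts in the numbers below for that comparison, which lend its difference no support. Most of the values that lost the call came from leaving out 1 library or from log2(FPKM + 1), on which low genes move less. For the alternative settings, above and below, no share over all genes is given. Their numbers of called members show how the calls depend on the processing and have no background beside them. The number of members called against Day1 became 1 for Day7 with each of the 3 limma settings on FPKM. For Day10 it became 1 without the filter and 3 with limma on log2(FPKM + 0.1). For Day14 it became 1 with DESeq2, with its size factors and with limma on log2(FPKM + 1) with or without the filter, and 4 with limma on log2(FPKM + 0.1). For Day17 it became 2 with limma on log2(FPKM + 1) with or without the filter. For pre-NPCs against Day21 it became 2 with DESeq2, its size factors or no filter. For giNPC P6 against pre-NPCs it became 2 without the filter and 0 in the fit of the 2 groups alone. For giNPC P6 against Day1 it became 0 with limma on log2(FPKM + 1) with or without the filter and 2 in the fit of the 2 groups alone, and for Brain-NPCs against Day1 it became 1 and 2. For Teratoma against giNPC P6, where it was 6 with Hoxd13 counted, it became 2 with limma on log2(FPKM + 1) with or without the filter and 3 with log2(FPKM + 0.1). In the fits of the 2 groups alone against Day1, the members no longer called had not passed the filter on low counts. The cause of the other shifts was not tested.

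With 1 library left out, the number called ranged from 0 to 0 for Day4, 0 to 1 for Day7, Day10 and Day14, 1 to 3 for Day17, 3 to 4 for Day21, 0 to 1 for pre-NPCs against Day21, 0 to 2 for giNPC P6 against pre-NPCs, 1 to 3 for giNPC P6 against Day1, 4 to 4 for giNPC P6 against Brain-NPCs, 5 to 7 for Brain-NPCs against Day1 and 3 to 6 for Teratoma against giNPC P6. A group left with 1 library was assumed to vary like the other groups.

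Libraries with the same replicate number did not deviate together (r from -0.196 to 0.151, median 0.003, over 0.1 in 3 of 55 pairs of groups), so the numbers do not pair samples. With the replicate number as a block, the number called became 0 for Day14 and 2 for pre-NPCs against Day21. Depth limits Hoxd1, Hoxd12 and, outside teratoma, Hoxd13, whose calls against Day1 rest on 9 reads.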
